A study of Mus musculus with 12 samples.

Results

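Of the 28591 genes counted in mouse RPE, 45 encode the lysosomal enzymes and membrane proteins described here. They were chosen by name and by having a mean of at least 10 over the 12 libraries, and all 45 are in the table and meet that level. The lowest mean, of *Galns*, was 312 normalized read counts and the highest, of *Psap*, was 216267, so that no member lay near the limit. The libraries were made from mice 1 mo of age, 6 of them WT (C57BL/6J, genotype wt) and 6 homozygous for the rd6 allele (Mfrp rd6/rd6), with the RPE of both eyes of a mouse combined in a library. The rd6 allele is a natural germline mutation of *Mfrp*, which encodes a membrane frizzled-related protein of the RPE, so that every cell of the mouse carries it. RPE was collected from eyecups after the anterior segment and neural retina had been taken out, and the choroid was not named as removed. Replicates are separate samples by their labels, and p-values measure the spread between these samples.

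The RPE ingests the shed tips of photoreceptor outer segments every day, and lysosomes break these down after fusing with the phagosomes. Lysosomes are acidic organelles in which hydrolases cleave proteins, glycans, sulfated sugars and lipids, while highly glycosylated membrane proteins line and regulate the compartment. Cathepsins are the lysosomal proteases, and loss of many of the enzymes listed here causes a storage disorder. Many of these genes share a promoter element, bound by transcription factors of the MiT/TFE family, that is known as the CLEAR element. Lysosomal enzymes are also abundant in microglia and macrophages, some of them, such as *Ctss*, far more so than in epithelia.

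Each library held between 28907262 and 33152725 reads counted in genes, and the largest size factor was 1.23 times the smallest. A count of 3 reads, the limit that a count of 0 allows, corresponds to between 2.71 and 3.32 normalized read counts, far under the lowest value of any member (217). *Mfrp* had 30132 to 45442 normalized read counts in WT and 20442 to 29732 in rd6, with a log2 fold change of -0.63 (SE 0.11, limma, q = 0.00126). This gene level value covers the whole transcript, does not test a splicing mutation, and 52.9% of the exon bases of *Mfrp* are shared with neighbouring genes. The RPE markers *Rpe65*, *Lrat* and *Rgr* were among the abundant genes of every library, and *Best1* was low in all 12, at 9 to 49 normalized read counts. WT replicate 4 stood apart from the other WT libraries, with the lowest summed level of the 12 RPE markers (1566150 normalized read counts against 1952760 to 2283390), and rd6 replicate 5 stood apart from the other rd6 libraries, with a summed level of 10 rod genes of 58289 against 12130 to 18396. The numbers of members called higher and lower are therefore also given without these 2 libraries.

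Lysosomal genes were more often higher than lower in rd6 RPE. Of the 45 members, 18 (40.0%) were higher and 2 (4.44%) were lower by limma at a q below 0.05, where q is the p-value after Benjamini-Hochberg adjustment over all genes tested, and the remaining 25 did not pass. Over all 17768 genes tested the same rule called 11.4% higher and 11.6% lower. Without WT replicate 4 and rd6 replicate 5 the members called higher again numbered 18, with *Ctsh* in place of *Plbd2*, and those called lower numbered 4. The median log2 fold change was 0.10 over the members and 0.0049 over all genes tested, and 33 members had a positive and 12 a negative value. Most of the changes were small. Changes were also read against a limit on their size, which is 0.81 on the log2 scale. Past both q and this limit, 3 members were higher (*Ctss*, *Ctsk* and *Grn*, 6.67% against 4.69% of all genes tested) and 1 was lower (*Plbd1*, 2.22% against 2.12%). In 14 members (31.1%) all 6 rd6 libraries lay above all 6 WT libraries, where 5.77% of all genes tested did so, and in 2 members (4.44%) all 6 lay below, where 5.67% of all genes did. In bulk tissue a change in the number of cells of a type and a change in the RNA per cell cannot be told apart.

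**Figure D1:**
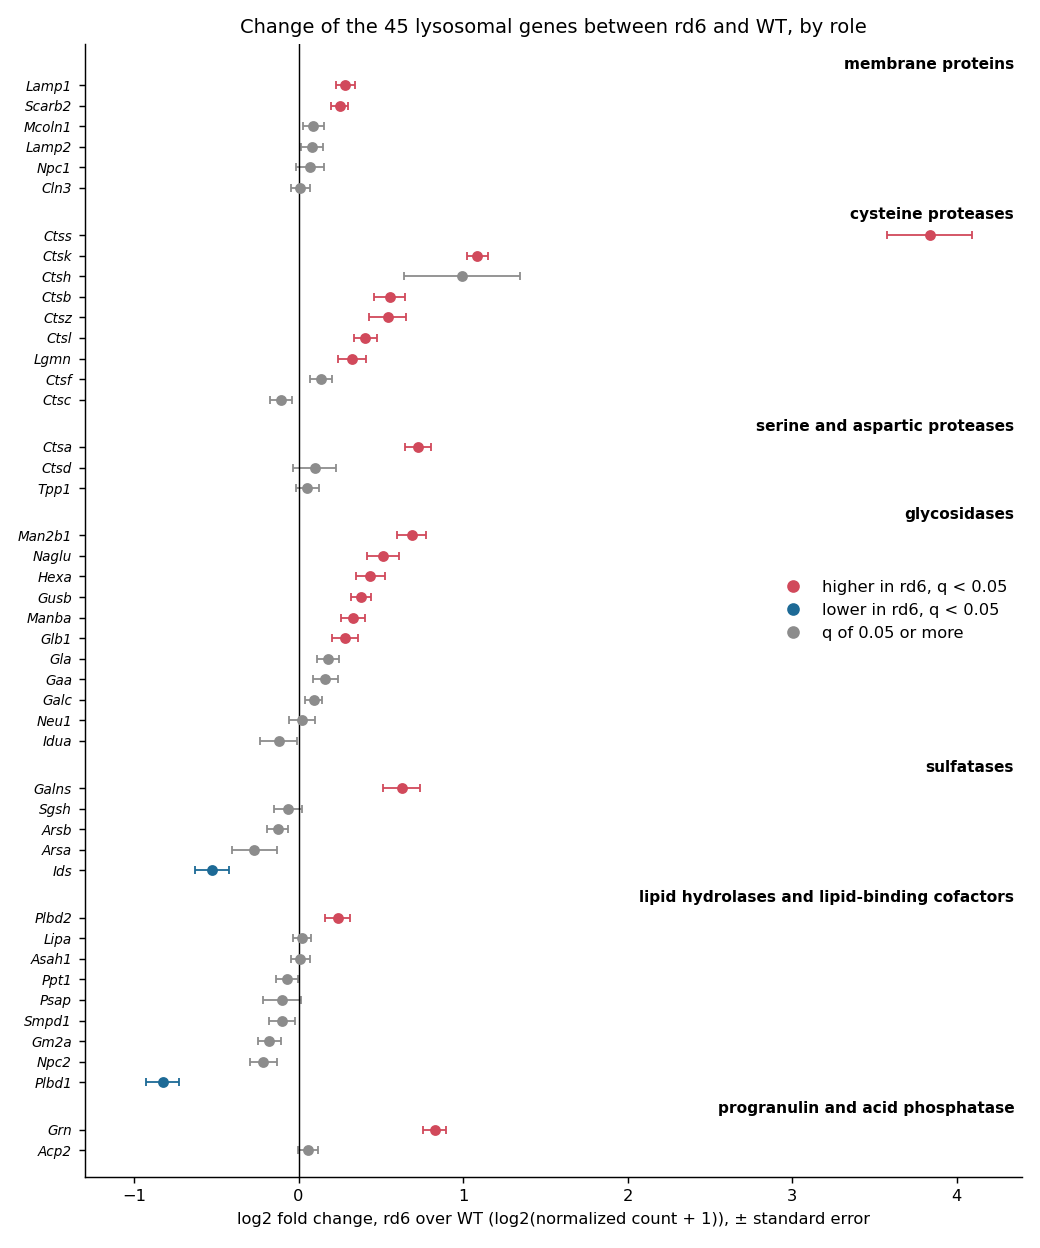
Log2 fold change of rd6 over WT on the log2(normalized count + 1) scale (horizontal axis) for each of the 45 genes, grouped by role, with bars of ± 1 standard error and colours for the call at q below 0.05. *Ctss* lies far to the right at 3.84, and *Plbd1* (-0.83) and *Ids* (-0.53) are the members called lower. Of the cysteine proteases 6 of 9 (66.7%) and of the glycosidases 6 of 11 (54.5%) were called higher, against 11.4% of all genes tested.

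The 6 membrane proteins changed little. *Lamp1*, a major glycoprotein of the lysosomal membrane, is at chr8:13159161-13175338 on the + strand (GRCm38). In WT the lowest, median and highest libraries had 9100, 10056 and 11368 normalized read counts, and in rd6 they had 11800, 12331 and 13021. The groups did not overlap, and the log2 fold change was 0.29 (SE 0.06, limma, q = 0.00335). *Scarb2*, the receptor that carries beta-glucocerebrosidase to lysosomes, had 3235, 3538 and 3680 in WT and 3759, 4141 and 4671 in rd6, again without overlap, and its log2 fold change was 0.25 (SE 0.05, limma, q = 0.00479). *Lamp2*, the cholesterol transporter *Npc1*, *Cln3* and the calcium channel *Mcoln1* did not pass the test, with log2 fold changes of 0.01 to 0.09 and SEs of 0.06 to 0.08.

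The bases before the start of *Lamp1* are shown because they hold the core of the CLEAR element in several copies. The motif CACGTG, which reads the same on both strands, occurs 4 times in the 100 bases before the RefSeq start at chr8:13159061-13159160 (GRCm38.p6, + strand). The 100 bases before the starts of *Ctss* (chr3:95526686-95526785, + strand) and *Ctsk* (chr3:95499110-95499209, + strand), the members with the largest rises, hold no copy. Capitals mark CACGTG.
Lamp1: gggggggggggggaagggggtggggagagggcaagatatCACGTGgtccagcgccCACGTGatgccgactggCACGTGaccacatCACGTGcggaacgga
Ctss: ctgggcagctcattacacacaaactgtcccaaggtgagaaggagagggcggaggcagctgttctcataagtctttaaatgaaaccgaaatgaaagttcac
Ctsk: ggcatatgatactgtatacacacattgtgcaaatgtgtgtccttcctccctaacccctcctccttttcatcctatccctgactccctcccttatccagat

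RefSeq promoters of 250 bases before to 50 bases after the start were matched for 39 of the 45 members. CACGTG was present in 15 of them (38.5%), against 2187 of the 27025 genes with a promoter (8.09%). The longer TCACGTGA, which contains CACGTG and also reads the same on both strands, was present in 5 (12.8%), against 1.12% of all genes. The shares by call are descriptions of few genes and were not tested against each other. CACGTG occurred in 6 of 15 members called higher (40.0%), in 8 of 22 not called (36.4%) and in 1 of 2 called lower. TCACGTGA occurred in 1 of the 15 called higher (6.67%) and in 4 of the 22 not called (18.2%). Sites with 12 bases on either side are shown for 3 members called higher and then for 3 members not called, with CACGTG in capitals.
Ctsa: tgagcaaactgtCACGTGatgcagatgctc
Glb1: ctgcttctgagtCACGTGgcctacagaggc
Naglu: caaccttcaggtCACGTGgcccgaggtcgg
Ctsd: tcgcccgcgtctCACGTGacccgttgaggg
Mcoln1: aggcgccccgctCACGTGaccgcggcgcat
Sgsh: gggcctgccgtgCACGTGaccgtggggagc
These sites are at chr2:164833749-164833778 (+), chr9:114401018-114401047 (+), chr11:101070009-101070038 (+), chr7:142387908-142387937 (-), chr8:3500462-3500491 (+) and chr11:119355522-119355551 (-) of GRCm38.p6, in the order given. The sites of *Ctsa*, *Ctsd* and *Mcoln1* are flanked so that they read TCACGTGA. A match describes the letters and not the binding of a factor.

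Cysteine proteases held the largest changes, with 6 of 9 called higher (66.7%, against 11.4% of all genes tested) and 3 not called. *Ctss*, an endopeptidase of microglia and other antigen-presenting cells (chr3:95526786-95556403, + strand), rose most of all members. The 6 WT libraries had 249, 260, 290, 381, 364 and 591 normalized read counts, and the 6 rd6 libraries had 2688, 4924, 3712, 7294, 5946 and 6225, in the order of the replicates. The lowest rd6 library was well above the highest WT library, and the spread within rd6 was wide, with an SD of 1707. The log2 fold change was 3.84 (SE 0.26, limma, q = 4.95e-07), which is 14.3-fold. *Ctsk*, best known as the collagen-cleaving protease of osteoclasts, lies next to *Ctss* on the same strand (chr3:95499256-95509362), 17423 bases away with no annotated gene between. It had 418, 448 and 502 in WT as lowest, median and highest and 853, 956 and 1065 in rd6. The libraries within each genotype were close to each other, and the log2 fold change was 1.09 (SE 0.07, limma, q = 2.21e-07).

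*Ctsb*, the most abundant cysteine protease per kb of exon, had 29665, 33372 and 39776 normalized read counts in WT and 42471, 50798 and 59595 in rd6. Its groups did not overlap either, and it rose 1.47-fold, a log2 fold change of 0.55 (SE 0.10, limma, q = 0.00127). *Ctsl*, a broad endopeptidase, had 10763, 11347 and 14147 in WT and 14682, 15776 and 16457 in rd6 (log2 fold change 0.41, SE 0.07, q = 0.00104). *Ctsz*, a carboxypeptidase, had 3314, 4213 and 4810 in WT and 4867, 6276 and 7612 in rd6 (log2 fold change 0.54, SE 0.11, q = 0.00372). *Ctsl* and *Ctsz* also showed no overlap between genotypes. *Lgmn*, an endopeptidase that cleaves after asparagine and processes other cathepsins, had 4211, 4807 and 5402 in WT and 5166, 6019 and 7448 in rd6 (log2 fold change 0.33, SE 0.09, q = 0.0153), and its groups overlapped.

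*Ctsh*, an aminopeptidase, *Ctsc* and *Ctsf* were not called. WT replicate 4 had 1587 normalized read counts of *Ctsh*, while the other 5 WT libraries had 300 to 453 and the rd6 libraries 675 to 1469. With this library the log2 fold change was 0.99 (SE 0.35, limma, q = 0.0603). Without it the value was 1.34 (q = 0.000231) and *Ctsh* was called higher. *Ctsc*, which activates serine proteases of immune cells, had a log2 fold change of -0.10 (SE 0.07, q = 0.287) and *Ctsf* one of 0.14 (SE 0.07, q = 0.179).

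**Figure D2:**
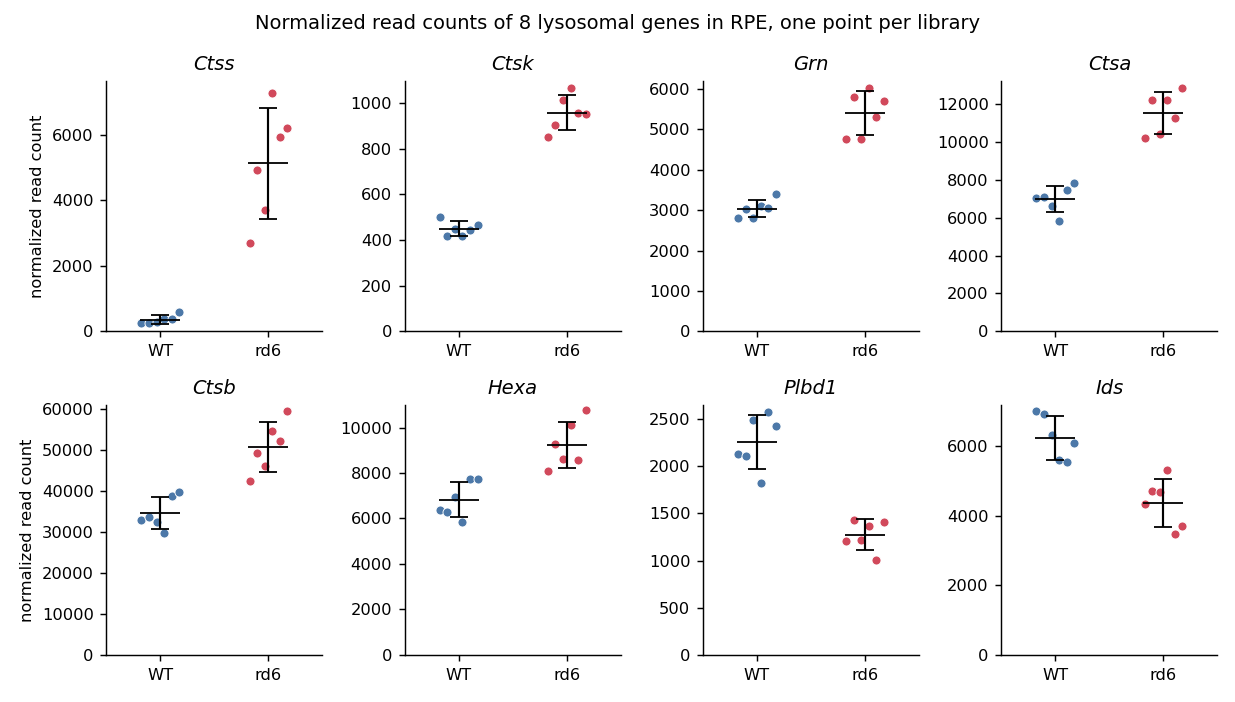
Normalized read count (vertical axis, from 0) of 8 lysosomal genes in the 6 WT and 6 rd6 libraries, with 1 point per library and black bars for the mean ± SD. In each of the 8 genes the groups are separate, with *Ctss*, *Ctsk*, *Grn*, *Ctsa*, *Ctsb* and *Hexa* higher and *Plbd1* and *Ids* lower in rd6.

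Of the serine and aspartic proteases, *Ctsa* alone was called. *Ctsa*, or protective protein, is a carboxypeptidase that also stabilises beta-galactosidase and neuraminidase. It had 5846, 7079 and 7839 normalized read counts in WT and 10217, 11751 and 12883 in rd6, without overlap, and a log2 fold change of 0.73 (SE 0.08, limma, q = 3.47e-05). *Glb1*, the beta-galactosidase it stabilises, had a log2 fold change of 0.28, and *Neu1*, the neuraminidase, had a log2 fold change of 0.02 (SE 0.08, q = 0.868). *Ctsd*, the aspartic protease that carries much of the degradation of rhodopsin in the RPE, was the most abundant protease per kb of exon. Its libraries ranged from 70161 to 109775 with a median of 89663 in WT and from 80597 to 123639 with a median of 95495 in rd6. The ranges overlapped, with WT replicate 4 below every rd6 library and rd6 replicate 6 above every WT library, and the log2 fold change was 0.10 (SE 0.13, q = 0.627). *Tpp1*, an aminopeptidase, had a log2 fold change of 0.05 (SE 0.07, q = 0.628).

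Among the 11 glycosidases, which remove sugars from glycoproteins, glycolipids and glycosaminoglycans, 6 were called higher (54.5%, against 11.4% of all genes tested) and 5 were not called. *Man2b1*, the lysosomal alpha-mannosidase, rose most, from 2635, 3364 and 3623 normalized read counts in WT to 4341, 5181 and 5770 in rd6 (log2 fold change 0.69, SE 0.09, limma, q = 0.000137). *Naglu*, which acts on heparan sulfate, had 1428, 1791 and 1841 in WT and 2079, 2443 and 3149 in rd6 (log2 fold change 0.51, SE 0.10, q = 0.0023). *Hexa*, the alpha subunit of beta-hexosaminidase, had 5865, 6676 and 7741 in WT and 8100, 8940 and 10759 in rd6 (log2 fold change 0.44, SE 0.09, q = 0.00327). These genes and *Gusb* showed no overlap between genotypes. *Gusb*, beta-glucuronidase, had 1012, 1050 and 1153 in WT and 1248, 1391 and 1537 in rd6 (log2 fold change 0.38, SE 0.06, q = 0.000798).

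The 2 remaining glycosidases called higher overlapped between the genotypes. *Manba*, beta-mannosidase, had 1097, 1278 and 1324 normalized read counts in WT and 1322, 1575 and 1761 in rd6 (log2 fold change 0.33, SE 0.07, limma, q = 0.00591). *Glb1* had 2062, 2460 and 2714 in WT and 2657, 2961 and 3423 in rd6 (log2 fold change 0.28, SE 0.08, q = 0.0205). *Gaa*, *Gla*, *Galc*, *Idua* and *Neu1* did not pass, with log2 fold changes of -0.12 to 0.18. Of the members on chromosome 9, which also carries *Mfrp*, *Hexa*, *Ctsh* and *Glb1* lie 15.4, 45.9 and 70.3 Mb from it. Linked strain differences cannot be told apart from the genotype there. The background of the rd6 line is not stated, so that for the other members strain differences cannot be told apart from the genotype either.

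Sulfatases, which remove sulfate from glycosaminoglycans and sulfatides, moved in both directions. *Ids*, iduronate-2-sulfatase on the X chromosome (chrX:70343069-70365084, - strand), was the most abundant per kb of exon and fell. It had 5550, 6217 and 7023 normalized read counts in WT and 3484, 4518 and 5310 in rd6, without overlap, and a log2 fold change of -0.53 (SE 0.10, limma, q = 0.00272). *Galns*, which desulfates keratan sulfate, was low but rose from 217, 242 and 272 in WT to 306, 365 and 459 in rd6, also without overlap, with a log2 fold change of 0.63 (SE 0.11, q = 0.00145). *Sgsh*, *Arsa* and *Arsb* were not called, with log2 fold changes of -0.27 to -0.06. Without WT replicate 4, *Arsb* was among the 5 members called lower, and without rd6 replicate 6, whose *Arsa* value of 787 stood apart from 441 to 488 in the other rd6 libraries, *Arsa* was among the 4 called lower.

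The 9 lipid hydrolases and lipid-binding cofactors held 1 member called higher (11.1%, against 11.4% of all genes tested) and 1 called lower (11.1%, against 11.6%). These shares are close to the background, and the median log2 fold change of the 9 was -0.10. *Plbd1*, a phospholipase B-like protein (chr6:136612070-136661928, - strand), fell from 1818, 2280 and 2574 normalized read counts in WT to 1006, 1293 and 1433 in rd6. All rd6 libraries lay below all WT libraries, and the log2 fold change was -0.83 (SE 0.10, limma, q = 9.51e-05). This is just past the limit of 0.81, and without WT replicate 3, 5 or 6 or rd6 replicate 5 the value was -0.80, -0.79, -0.80 or -0.76, inside the limit with q below 0.05. *Plbd2*, its paralog, moved the other way, with 2328, 2852 and 2912 in WT and 2887, 3125 and 3659 in rd6. Its groups overlapped, and it was the weakest of the calls (log2 fold change 0.24, SE 0.07, q = 0.0365). Leaving out any of WT replicates 3, 4 and 6 or rd6 replicates 2, 4 and 6 moved q to between 0.0512 and 0.082.

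*Psap*, the precursor of the saposins that present sphingolipids to their hydrolases, was the most abundant member per kb of exon. It had 178444, 225154 and 256774 normalized read counts in WT and 182160, 205554 and 243944 in rd6, and a log2 fold change of -0.10 (SE 0.12, limma, q = 0.58). *Npc2*, which carries cholesterol, had a log2 fold change of -0.21 (SE 0.08, q = 0.0784), and *Gm2a*, the activator of hexosaminidase A, one of -0.18 (SE 0.07, q = 0.0828). Both were called lower when WT replicate 4 was left out, and *Gm2a* also when rd6 replicate 6 was. Acid sphingomyelinase (*Smpd1*), acid lipase (*Lipa*), acid ceramidase (*Asah1*) and palmitoyl-protein thioesterase (*Ppt1*) had log2 fold changes of -0.10 to 0.02 and overlapping groups.

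*Grn* encodes progranulin, a secreted and lysosomal protein that is cleaved into granulins and is abundant in microglia (chr11:102430315-102437048, + strand). Its WT libraries had 2810, 3048 and 3394 normalized read counts and its rd6 libraries 4767, 5507 and 6039. No rd6 library came near the WT range, and the log2 fold change was 0.83 (SE 0.07, limma, q = 3.97e-06), a 1.77-fold rise. Without WT replicate 1 or 3 or rd6 replicate 2 or 4 it was between 0.79 and 0.81 and, before rounding, just under the limit, with q below 0.05. The acid phosphatase *Acp2* had a log2 fold change of 0.06 (SE 0.06, q = 0.552).

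Levels were compared between genes as normalized read count per kb of exon. In WT, *Psap* (81616 per kb) and *Ctsd* (39123 per kb) far exceeded *Ctsb* (5714 per kb), and *Galc* was lowest, at 65.1 per kb. The members with the largest rises were not among the abundant ones in WT. *Ctss* ranked number 35 of 45 in WT, at 262 per kb, and number 8 in rd6, at 3779 per kb. *Ctsk* ranked 33 in WT (297 per kb) and 29 in rd6 (633 per kb). *Plbd1* moved from rank 22 (858 per kb) to rank 33 (484 per kb).

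**Figure D3:**
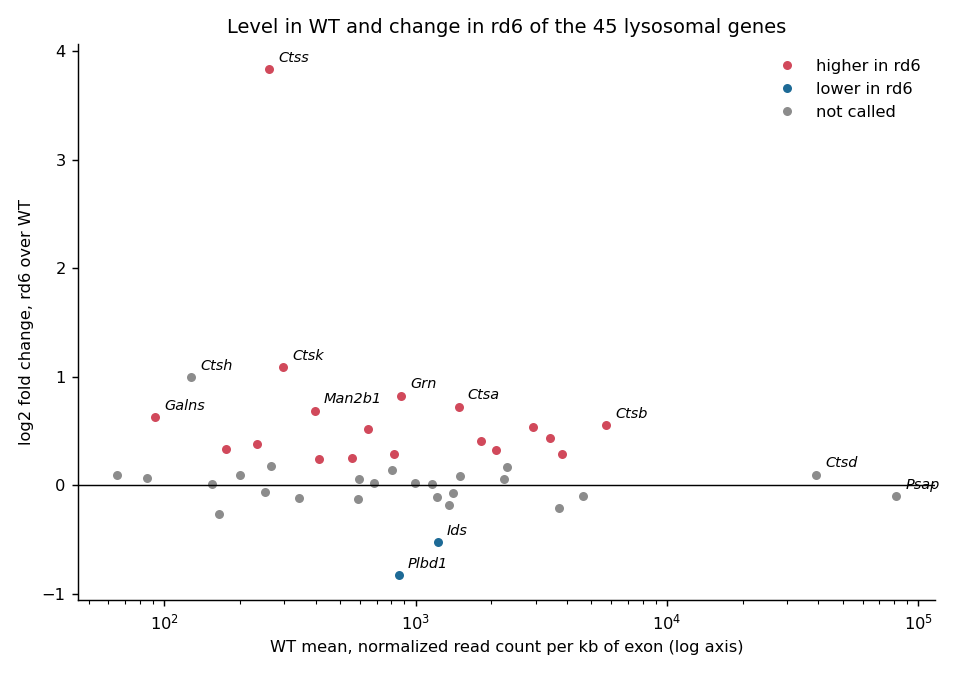
Mean level in WT, as normalized read count per kb of exon (horizontal log axis), against the log2 fold change of rd6 over WT (vertical axis) for the 45 genes, coloured by call. *Psap* and *Ctsd*, the most abundant genes, lie near 0, while *Ctss* and *Ctsk* lie at 262 and 297 per kb.

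Summed over the 45 members, lysosomal transcripts took between 1.56% and 1.89% of the normalized read counts in the WT libraries and between 1.74% and 2.12% in the rd6 libraries, so that the genotypes overlapped. *Psap* and *Ctsd*, neither of them called, made up most of this sum. They were left out next, a choice made after their values were seen. Over the other 43 members the summed share was on average 0.741% for WT, with an SD of 0.028 over 6 libraries. For rd6 it was 0.902%, with an SD of 0.042 over 6, and the highest WT library (0.780%) was below the lowest rd6 library (0.842%). In normalized read counts the sums of these 43 overlapped, at 205346 to 249971 in WT and 245368 to 299756 in rd6. In absolute terms *Ctsb* gained most, by 16198 normalized read counts on average, which is 29.2% of the summed gains of all members with a higher mean, followed by *Ctsd*, which was not called, with 11.5%, *Ctss* with 8.6% and *Ctsa* with 8.21%.

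Markers of other cells moved with the genotype. Of 18 microglial or macrophage markers, *P2ry13* and *Siglech* had WT means under 10 and passed the filter on low values through rd6 alone, and were left out of the counts. Of the other 16, 14 were called higher in rd6 (87.5%, against 11.4% of all genes tested). *Csf1r* and *Mrc1* were not called, and the median log2 fold change of the 16 was 2.69. *Csf1r* had 12921 to 20851 normalized read counts in all 12 libraries. The summed level of all 18 was 14151 to 20280 in WT and 22094 to 31071 in rd6. Without *Csf1r* the sum of the other 17 was 766 to 1997 in WT and 4557 to 10220 in rd6. Both sums include *P2ry13* (4 to 11 in WT, 116 to 294 in rd6) and *Siglech* (2 to 12 and 19 to 44). The 14 called markers had log2 fold changes from 1.37 (*Spi1*) to 4.37 (*Trem2*), and *Ctss*, at 3.84, lay within this range. *Tyrobp* had 3.94, *Cx3cr1* 3.44 and the pan-leukocyte gene *Ptprc* 1.46, while *Mrc1* had -0.14. No marker was at 0 in any library. Of 8 endothelial markers 6 were called higher (75.0%, against 11.4%), with summed levels of 5057 to 9633 in WT and 8283 to 19698 in rd6. Of 12 genes listed as RPE markers, 4 (33.3%, against 11.6% of all genes tested) were lower, *Rpe65*, *Lrat*, *Rlbp1* and *Rgr*, and *Dct* was higher. *Slc16a3*, also on that list and higher, is a monocarboxylate transporter that is not specific to the RPE, and was at 72 to 265 normalized read counts. The summed levels of the 12 were 1566150 to 2283390 in WT and 1499040 to 1983320 in rd6. All 10 rod genes had negative log2 fold changes, with a median of -0.99, and 3 were called lower. Their summed levels were 25504 to 63438 in WT and 12130 to 58289 in rd6, where the 5 libraries other than replicate 5, at up to 18396, lay below every WT library. Of 10 stromal and mural genes 1 was lower (*Pdgfra*), and the 5 blood genes did not pass, with log2 fold changes of 0.65 to 0.84.

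Microglial markers and risen lysosomal genes were lowest in the same rd6 library, but their other extremes matched only in part. Rd6 replicate 1 was the lowest rd6 library for 12 of the 14 microglial markers called higher, and for 15 of the 18 members called higher. For the other 27 members it was the lowest rd6 library in 8. Rd6 replicate 1 also had the lowest summed level of all 45 members among rd6 libraries (508124 normalized read counts). Its summed levels of endothelial markers (19698) and of stromal and mural genes (25877) were the highest of the rd6 libraries. Among WT libraries, replicate 6 was the highest for 11 of the 14 markers and for 9 of the 18 members, among them *Ctss*, and for 5 of the other 27. The lowest WT library differed, since replicate 4 was lowest for 10 of the 18 members and for 1 of the 14 markers, and also for 20 of the other 27 members. Among rd6 libraries, replicate 6 was the highest for 13 of the 18 members, 4 of the 14 markers and 13 of the other 27 members, and replicate 4 for 4, 9 and 11. The part of microglia, macrophages, endothelium, stroma, rods and RPE content in the changes of the members was not tested.

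**Figure D4:**
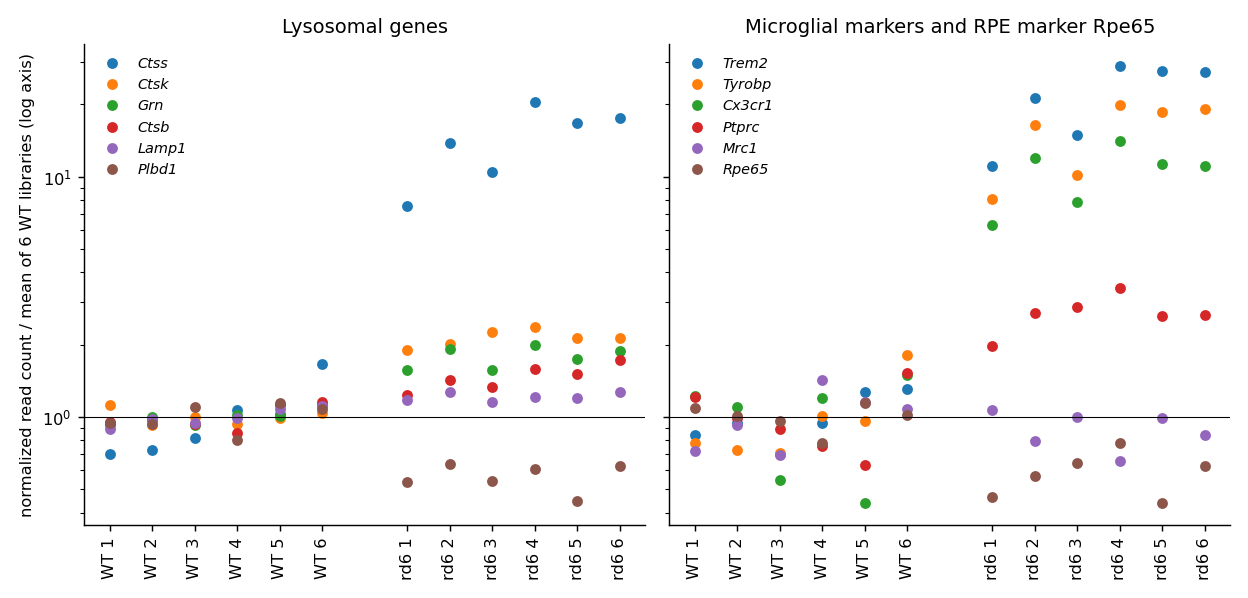
Normalized read count divided by the mean of the 6 WT libraries (vertical log axis) in each of the 12 libraries (horizontal axis) for 6 lysosomal genes (left) and for 5 microglial or macrophage markers with the RPE marker *Rpe65* (right). In rd6, *Ctss* is lowest in replicate 1 and highest in replicate 4, as are *Trem2*, *Tyrobp* and *Cx3cr1*, while *Ctsb* and *Lamp1* vary less.

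Other genes of the lysosomal pathway were described by list. The V-ATPase, the proton pump that acidifies lysosomes, had 18 subunits and accessory proteins measured, of which 2 were called lower (11.1%, against 11.6% of all genes tested) and 16 did not pass. This share is close to the background. *Atp6v0e2* was lower, with 2763, 3139 and 3336 normalized read counts in WT and 2030, 2232 and 2417 in rd6 (log2 fold change -0.47, SE 0.06, limma, q = 0.000108), as was *Atp6ap2* (log2 fold change -0.20, SE 0.06, q = 0.0213). The other 16 had log2 fold changes of -0.20 to 0.12. Of 6 genes that sort enzymes to lysosomes, 2 were called in each direction (33.3% each, against 11.4% higher and 11.6% lower of all genes tested). The receptors *Igf2r* (log2 fold change -0.37) and *Sort1* (-0.24) were lower, *Gnptg* (0.18) and *Nagpa* (0.37), which make the mannose 6-phosphate tag, were higher, and *M6pr* and *Gnptab* were not called.

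Cystatins are the inhibitors of cysteine proteases. *Cst3*, the abundant secreted cystatin of the RPE, had 229738 to 386121 normalized read counts in WT and 271206 to 365428 in rd6 (log2 fold change 0.01, SE 0.14). *Cst7*, a cystatin of activated microglia and other leukocytes, was at 1 to 8 normalized read counts in WT, around the floor of 3 reads, and at 296 to 1284 in rd6. It passed the filter on low values through the rd6 libraries alone, so that no fold change or test is given. *Cst6* and *Cstb* had log2 fold changes of 0.06 and 0.07 and were not called.

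Of the 15 tested MiT/TFE factors and genes of lysosomal nutrient sensing, 1 was called higher (6.67%, against 11.4% of all genes tested) and 3 lower (20.0%, against 11.6%). With so few genes these shares are a description. *Tfeb* had 554, 601 and 701 normalized read counts in WT and 672, 680 and 798 in rd6 (log2 fold change 0.21, SE 0.07, limma, q = 0.0421). *Tfe3* and *Mitf* were not called, with log2 fold changes of -0.02 (SE 0.06) and -0.15 (SE 0.07). The kinase *Mtor* was lower at -0.63 (SE 0.16, q = 0.0144), as were *Flcn* at -0.39 and *Fnip1* at -0.25, which together form a regulator of the Rag GTPases. *Tfec* was too low to be tested, with at most 17 normalized read counts.

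Among 31 other lysosomal proteins 10 (32.3%, against 11.4% of all genes tested) were called higher and 1, *Naaa*, lower (3.23%, against 11.6%). The median log2 fold change was 0.05. The 2 past the limit of 0.81 were *Laptm5* (log2 fold change 3.03, SE 0.25) and *Cd68* (2.67, SE 0.23), genes of haematopoietic cells and macrophages. Of 14 genes of autophagy and phagosome maturation, *Map1lc3a* (0.65, SE 0.09) and *Map1lc3b* (0.17, SE 0.06) were higher, 14.3% against 11.4% of all genes tested, and the other 12 were not called.

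**Figure D5:**
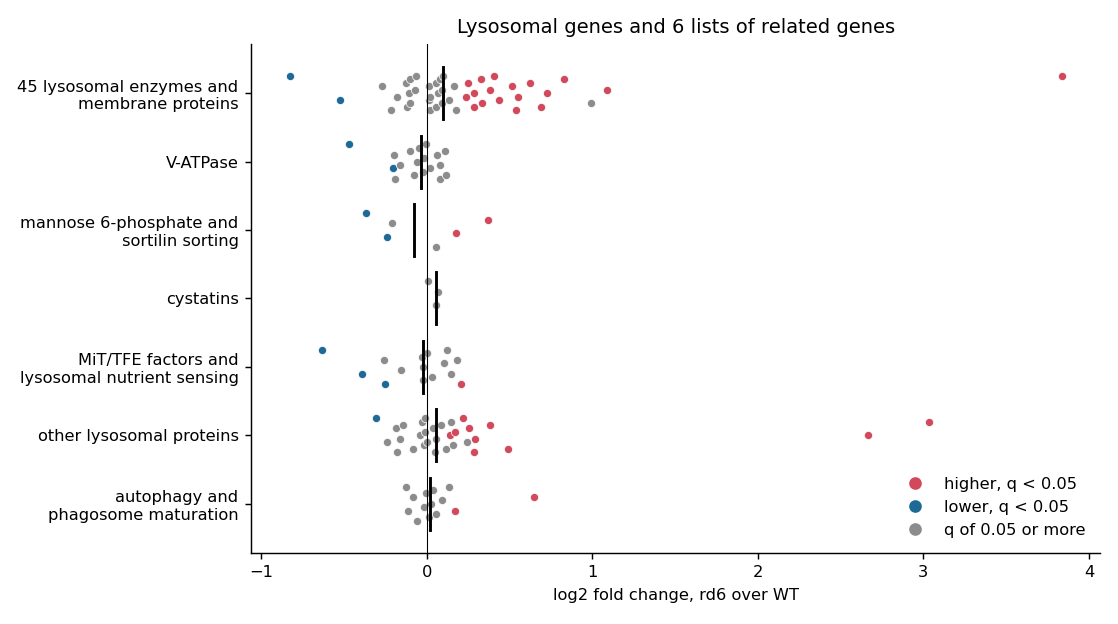
Log2 fold change of rd6 over WT (horizontal axis) for the 45 lysosomal genes and for 6 lists of related genes (rows), with 1 point per gene coloured by call and a black bar at the median of each list. The medians lie between -0.08 and 0.10, and the points past 1.5 are *Ctss*, *Laptm5* and *Cd68*; *Cst7*, with a WT mean under 10, is not drawn.

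Exons of 9 members share over 10% of their bases with another gene, so that their values are less certain. Reads were counted with standard settings of Rsubread, which by default take no account of strand. For *Ctsd* (34.4% shared) the overlapping gene is on the same strand, where strand would not separate the reads. *Ctsl* (32.9% shared) has overlapping genes on both strands. The called members among the 9 are *Ctsa*, *Ctsb*, *Ctsl* and *Hexa*.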

How the data were processed

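RPE RNA of 12 mice was sequenced as stranded total-RNA libraries with paired reads. The authors aligned reads to mm10, counted them per gene with Rsubread at its standard settings and deposited for every gene a signal, which is its reads in a library over that library's DESeq2 size factor. Versions are not given in the sources used here. The deposited columns of fold changes, standard errors, Wald statistics and p-values were not used. The table holds 28596 entries for 28591 genes, of which 5 repeated entries with identical values were dropped. In each library 100% of the values were whole multiples of the value of 1 read within 0.001, which gave the reads behind each value. Floors cover counting error only.

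Genotypes were compared by limma 3.58.1 in R 4.3.3 (eBayes with trend, no further term) on log2(normalized count + 1) for 17768 genes whose mean reached 10, with Benjamini-Hochberg adjustment over all of them. Fold changes on this scale understate changes of low genes. Scripts were tested on simulated data. Alternatives were a pseudocount of 0.1 or 10, other filters, rescaling, edgeR 4.0.16 and DESeq2 1.42.0 on the recovered reads, a replicate block, leaving out each library and, chosen after seeing the data, leaving out WT replicate 4 and rd6 replicate 5 together.

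Values are given for members called at q below 0.05 and the most abundant of each role, and the others in ranges. Related genes are named where called past the study's fold limit (0.81 on the log2 scale), with *Mitf*, *Tfeb* and *Tfe3*. *Arsa*, *Arsb*, *Npc2*, *Gm2a*, *Ctsh*, *Ctsc*, *Ctsf*, *Tpp1*, *Neu1*, *Acp2*, *Cst3*, *Cst6*, *Cstb*, *Atp6v0e2*, *Atp6ap2*, *Mtor*, *Flcn*, *Fnip1*, *Naaa*, *Tfec*, *Map1lc3a*, *Map1lc3b* the genes of enzyme sorting and single cell markers were named after their values were seen. Of the list of other lysosomal proteins, 1 gene is not reported here. Members and lists were chosen with earlier results of these data known. Coordinates, exon lengths and overlaps are from GENCODE M21 (GRCm38), which has 28510 of the genes, and promoters from RefSeq (GRCm38.p6).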

Additional observations from a re-analysis of the deposited data

Results flagged for a closer look

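In 4 of the 90 groups of 6 libraries (45 members in 2 genotypes, 4.44%) the highest or lowest library lay far from the others by Dixon's test, which flags about 5% of groups by chance. Among them were 3 values of WT replicate 4. *Ctsh* was highest there at 1587 normalized read counts (next 453), *Npc1* was highest at 1160 (next 958) and *Neu1* was lowest at 3003 (next 3766). *Arsa* was highest in rd6 replicate 6 at 787 normalized read counts, with the next library at 488.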

How the results depend on the processing

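Under 25 alternatives no member changed direction in a called result, and 19 of the 20 called members were called in every one, the exception being *Plbd2*. Members called higher numbered 17 to 22, the most by limma-trend on log2 CPM (22), which added *Ctsf*, *Gaa*, *Gla* and *Mcoln1* and also moved the calls over all genes to 2752 higher and 1557 lower from 2024 and 2062; with upper quartile scaling these were 2374 and 1583. Members called lower numbered 2 to 5 when single libraries were left out, and 4 without WT replicate 4 and rd6 replicate 5. Members lower and past the limit of 0.81 on the log2 scale numbered 0 under limma-trend on log2 CPM and edgeR with upper quartile scaling, and 0 to 1 when single libraries were left out. DESeq2 called 3 members lower, *Npc2* added. The replicate numbers did not pair the samples (mean correlation of same-numbered deviations -0.245, over 0.1 in 1 of 6 pairs, and no WT library closest to its own number), and a fit with the replicate block called 17 members higher and 2 lower, with 1453 and 1489 over all genes. The cause of these shifts was not tested.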
